A study of Mus musculus with 8 samples.

Results

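The genes described here encode the enzymes and carriers that cells use to burn fatty acids and ketone bodies: acyl-CoA synthetases, the carnitine shuttle, mitochondrial and peroxisomal beta-oxidation, the electron transfer flavoprotein and the 3 enzymes that turn ketone bodies into acetyl-CoA. They were taken by name as a list of 31 genes, matched by symbol to the 56980 Ensembl gene IDs of the deposited count table, and all 31 passed the filter on low counts that left 18905 genes for testing. RNA came from primary oligodendrocyte progenitors, the dividing precursors of myelinating cells, immunopanned for PDGFRα from the cortex of wild-type C57BL/6 mouse pups of both sexes at postnatal day 6 to 8. All cultures were expanded in 25 mM glucose with PDGF-AA at 10 ng/mL and bFGF at 20 ng/mL, and bFGF was removed before the experiment while PDGF-AA stayed. High glucose cultures (HG) were kept at 25 mM, and low glucose cultures (LG) were lowered by medium exchange to 12.5, 5 and 2.5 mM before harvest on day 5. Each group holds 4 libraries, numbered 1 to 4 in the titles. A code in the sample descriptions, called the preparation code here, is shared by numbers 1 and 2 of both groups, while numbers 3 and 4 have a code each, so n = 4 counts libraries from 3 codes. The labels do not say what the code stands for, and the name is used here only for convenience.

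Long-chain fatty acids are activated to acyl-CoA by synthetases, exchanged onto carnitine by CPT1, carried into the mitochondrion by a translocase, returned to CoA by CPT2 and then shortened in repeated cycles of dehydrogenation, hydration, a second dehydrogenation and thiolysis. Peroxisomes run a related pathway on very long and branched chains. Ketone bodies bypass CPT1 and enter through 3-hydroxybutyrate dehydrogenase and succinyl-CoA:3-oxoacid CoA transferase, and the immature brain is known to use them for energy and lipid synthesis.

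HG libraries held 50864130 to 61915909 counts and LG libraries 53869166 to 65733928, a difference within the spread of libraries (two-sided exact permutation test over 70 assignments, p = 0.543). The progenitor markers Pdgfra, Cspg4, Olig1, Olig2 and Sox10 summed to 4854 to 7586 CPM, which are counts scaled by TMM-adjusted library size, in HG and 5611 to 7152 CPM in LG. Microglial markers summed to at most 0.555 CPM and endothelial markers to at most 3.86 CPM, with Cx3cr1 and Cldn5 at 0 counts in every library. Neuron markers summed to 49.7 to 72.1 CPM and astrocyte markers to 480 to 1678 CPM, the latter described further below. The 31 genes took 0.210% to 0.248% of the counts of a library.

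Ketone use was the most abundant part of the list by TPM. Levels are compared between genes as TPM, in which counts are divided by exon length and scaled to the same sum in each library. The exon length pools all annotated exons of a gene, so the order of genes depends on it. Oxct1, the CoA transferase that commits acetoacetate to oxidation, led the list at 239 ± 9.51 TPM in HG and 236 ± 14.2 TPM in LG (SD, n = 4). Acat1, the mitochondrial thiolase that makes acetyl-CoA from acetoacetyl-CoA, stood at 167 ± 8.88 TPM in HG and 164 ± 13.7 TPM in LG. Bdh1, which oxidises 3-hydroxybutyrate, was lower at 56.2 ± 5.03 and 62.5 ± 5.22 TPM. Together these 3 genes made up 26.9 ± 1.33% of the TPM of the list in HG and 26.9 ± 1.20% in LG.

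Among the genes that act on fatty acids, the highest TPM was that of a peroxisomal enzyme. Hsd17b4, the D-bifunctional protein, stood at 223 ± 5.00 TPM in HG and 220 ± 6.95 TPM in LG. The L-bifunctional protein gene Ehhadh had the lowest level of the list at 2.20 ± 0.112 and 1.84 ± 0.374 TPM. The first place of Hsd17b4 rests on exon length, 3404 bases against 8730 for Hadha. By CPM, which is not divided by length, Hadha was higher, at 269 in HG and 290 in LG against 232 and 236 for Hsd17b4. Of the acyl-CoA dehydrogenases, Acadl (long chain) led at 128 ± 37.3 TPM in HG, and Acadm (medium chain), Acads (short chain) and Acadvl (very long chain) lay between 40.0 and 42.7 TPM there. Hadha, the alpha subunit of the mitochondrial trifunctional protein, was at 101 ± 3.64 TPM in HG and its partner Hadhb at 54.9 ± 3.5 TPM, with a Hadha to Hadhb ratio of 1.74 to 2.04 in the 8 libraries. Etfa was at 81.9 ± 16.6 TPM in HG against 13.9 ± 1.67 TPM for Etfb, whose protein pairs with that of Etfa. In the annotation 617 of the 1164 exon bases of Etfb are shared with the gene Gm45233 on the same strand, so the level of Etfb is uncertain. Acsl3, a synthetase of endoplasmic reticulum and lipid droplets, led its group at 66 ± 14.7 TPM in HG, above Acsl4 (20.6 ± 1.73), Acsl6 (12.6 ± 3.21) and Acsl1 (5.14 ± 0.430 TPM).

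**Figure D1:**
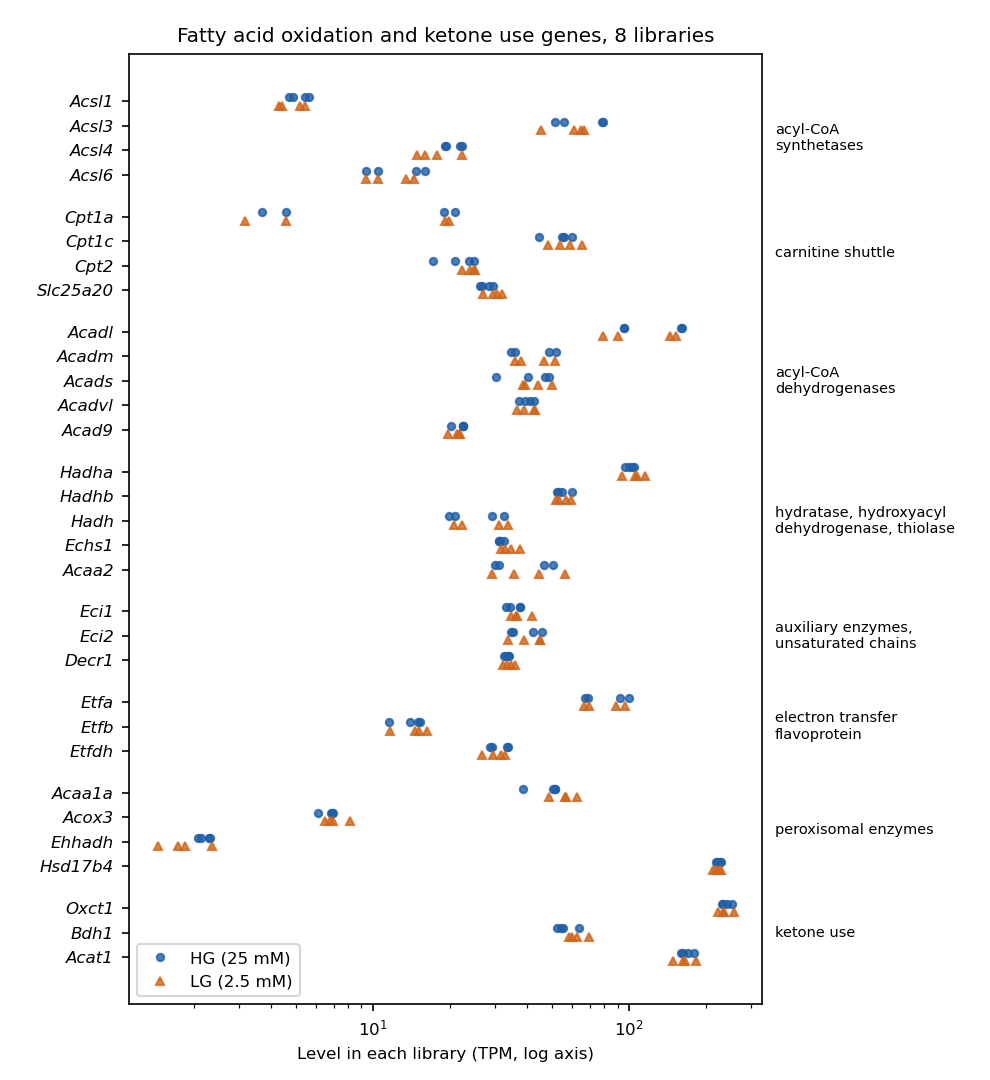
Level of each of the 31 genes in every library, in TPM on a log axis, with HG libraries as circles and LG libraries as triangles and genes grouped by role. Oxct1 and Hsd17b4 lie at the top near 220 to 240 TPM, Ehhadh lies at the bottom near 2 TPM, and the 8 Cpt1a libraries fall into a high and a low set that each hold both groups.

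The comparison of LG with HG asks whether the cells alter these genes when less glucose is supplied. Without a block, 0 members passed by the quasi-likelihood test of edgeR. In that fit 1 of 31 had an unadjusted p under 0.05 (3.23%, against 3.94% of all 18905 genes), and the smallest Benjamini-Hochberg adjusted p among members was 0.9999. DESeq2 likewise passed 0 members, with 1 at an unadjusted p under 0.05. A fit by edgeR that took the replicate number as a block passed 0 members as well, while 0.418% of all genes passed. In that fit 4 of 31 members had an unadjusted p under 0.05, a share of 12.9% against 13.4% of all genes. With the block the member count depended on the pair left out, as did the count over all genes. Without pair 4 it was 9 of 31 (29.0%, against 21.9% of all genes in that fit). It was 2 of 31 (6.45%) when pair 1, 2 or 3 was left out instead. The counts over all genes were then 1502 of 18991, 1572 of 18831 and 2254 of 19081, each a larger share than that of members.

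The fold changes with the block were small. With the block, 29 of 31 members had a log2 fold change within 0.2 of 0, the lowest being Ehhadh at -0.24 and the highest Acaa1a at 0.27. The 95% intervals of 30 members lay within 0.5 of 0 on the log2 scale, the exception being Ehhadh (-0.62 to 0.14). The median was 0.05 without the block and 0.04 with it, against 0.01 and 0.00 over all genes tested. Without the block 23 of 31 members were above 0 (74.2%, against 51.4% of all genes). Within pairs of the same number the median member difference was 0.11 in pair 1, 0.04 in pair 2, 0.08 in pair 3 and -0.07 in pair 4. The blocked median was 0.11 without pair 4, and the unblocked one ran from 0.00 without LG replicate 1 to 0.10 without LG replicate 4. Of the members, 6 were higher in LG in 4 of 4 pairs (19.4%, against 10.8% of all genes) and 2 were lower in 4 of 4 pairs (6.45%, against 11.0%). Removing GC and length trends beside the block turned the sign of 5 members, of which Acsl6 went to 0.02, Acads to -0.01, Acadvl to -0.03, Etfdh to 0.03 and Hsd17b4 to just below 0. Of the other 26, 15 moved by over 1.5 times, and the largest shift of any member was 0.11, that of Acads. LG and HG libraries overlapped for every member, while 1.07% of all genes had every LG library above every HG library and 1.82% had every LG library below.

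**Figure D2:**
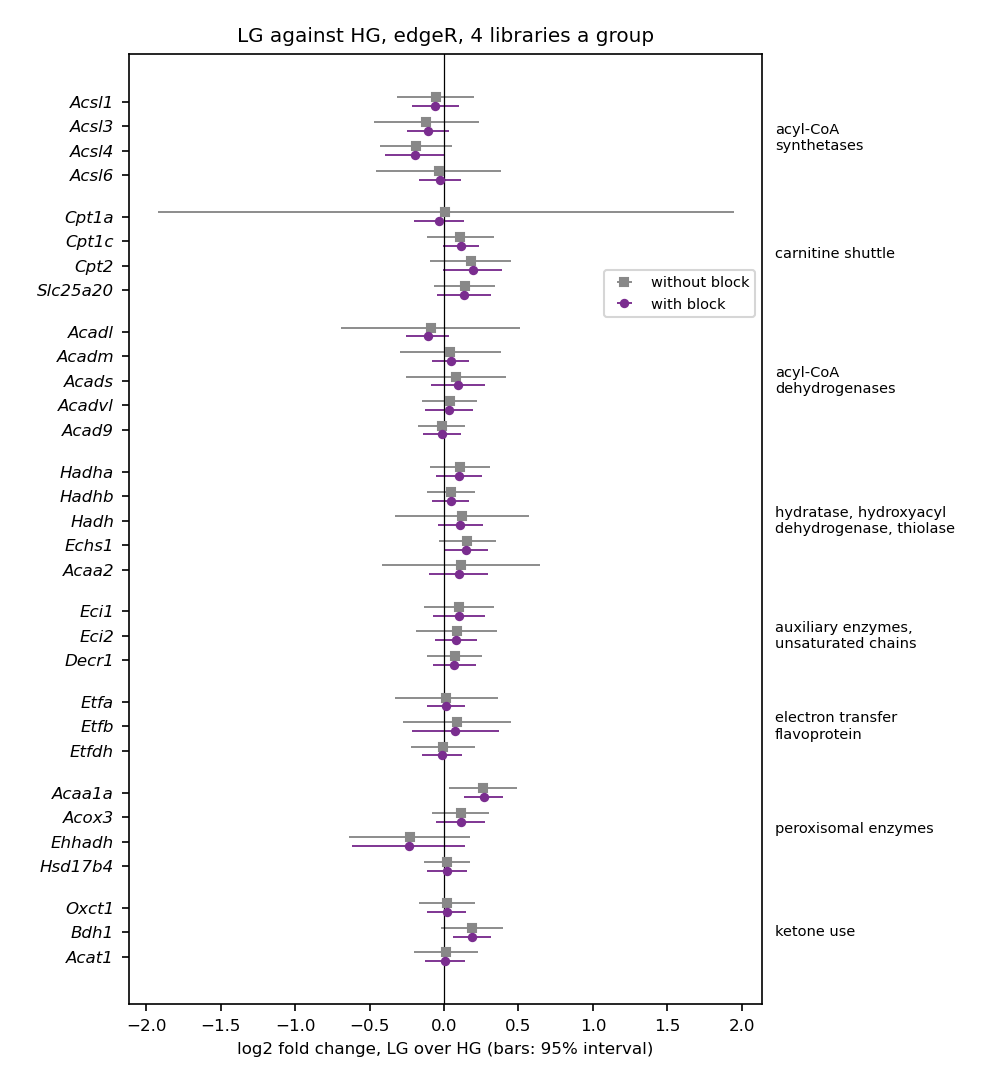
log2 fold change of LG over HG for each of the 31 genes with its 95% interval, without a block (squares) and with the replicate number as a block (circles). No interval with the block reaches beyond 0.5 except that of Ehhadh, and the interval of Cpt1a runs from -1.92 to 1.94 without the block and from -0.20 to 0.13 with it.

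Acyl-CoA synthetases, which activate fatty acids, were the only role group with all members below 0 without the block, at a median of -0.09 over 4 genes, and none of them passed. Acsl4, which prefers arachidonic acid and related chains, measured 37.1, 34.6, 32.2 and 32.3 CPM in HG libraries 1 to 4 and 28.1, 28.9, 26.2 and 36.1 CPM in LG. LG replicate 4 lay within the HG range and the other 3 LG libraries lay below it. Its log2 fold change with the block was -0.20 (SE 0.0893, edgeR unadjusted p = 0.0493, adjusted p = 0.371), and -0.10 with the GC and length correction as well (unadjusted p = 0.138). Acsl3 read 108, 97.7, 69.7 and 75.4 CPM in HG and 92.0, 87.3, 64.4 and 79.4 CPM in LG, and was higher in LG in 1 of 4 pairs. Acsl6, a synthetase of brain that favours docosahexaenoic acid, had 45.8, 45.4, 32.3 and 28.9 CPM in HG and 43.7, 43.4, 30.3 and 31.3 CPM in LG. For both genes the difference between numbers 1 and 2 and numbers 3 and 4 exceeded that between HG and LG. Acsl1 was at -0.06 with the block.

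Carnitine shuttle genes were all slightly above 0 without the block, with a median of 0.12 over 4 genes. Cpt1a (ENSMUSG00000024900) encodes the carnitine palmitoyltransferase that controls entry of long chains into mitochondria, and lies on GRCm38 chromosome 19 at 3322334 to 3385733, plus strand. It measured 45.4, 45.9, 10.9 and 8.79 CPM in HG libraries 1 to 4 and 47.5, 45.6, 11.4 and 7.25 CPM in LG. Each LG library thus lay beside the HG library of its own number, and pairs 1 and 2 stood far above pairs 3 and 4. The log2 fold change was 0.01 without the block and -0.03 with it (SE 0.0762, edgeR adjusted p = 0.885). Cpt1c (ENSMUSG00000007783, chromosome 7 at 44959372 to 44974851, minus strand) encodes the brain form of CPT1, which sits in the endoplasmic reticulum and has little transferase activity. It measured 77.8, 89.6, 95.3 and 104 CPM in HG and 88.2, 99.3, 97.9 and 110 CPM in LG, higher in LG in 4 of 4 pairs by 0.11 on the log2 scale with the block (edgeR adjusted p = 0.404). With the GC and length correction as well this value was 0.02. Cpt2 was at 0.19 with the block (edgeR adjusted p = 0.391) and the translocase gene Slc25a20 at 0.13 (adjusted p = 0.512).

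By TPM, Cpt1c exceeded Cpt1a in every library, and by how much depended on the replicate number. Cpt1a made up 25.2% to 30.0% of the summed TPM of both genes in libraries 1 and 2 of both groups, and 4.59% to 7.85% in libraries 3 and 4. The upstream sequences of both genes are printed because the 2 isoforms parted in this way. They are the first 200 of the 250 bases before the start site in RefSeq's GRCm38.p6 promoter table, 5′ to 3′ on the gene's strand. By GENCODE the Cpt1a stretch lies inside the gene span given above, downstream of its start, and the Cpt1c stretch lies outside its gene. Capitals mark the nuclear receptor motif AGGTCA or its reverse complement TGACCT.
Cpt1a, chr19:3323051-3323250, plus strand: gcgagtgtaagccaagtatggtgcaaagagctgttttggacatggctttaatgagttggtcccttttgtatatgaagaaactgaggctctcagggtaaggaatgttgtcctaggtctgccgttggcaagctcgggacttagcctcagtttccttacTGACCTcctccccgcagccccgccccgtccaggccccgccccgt
Cpt1c, chr7:44974902-44975101, minus strand: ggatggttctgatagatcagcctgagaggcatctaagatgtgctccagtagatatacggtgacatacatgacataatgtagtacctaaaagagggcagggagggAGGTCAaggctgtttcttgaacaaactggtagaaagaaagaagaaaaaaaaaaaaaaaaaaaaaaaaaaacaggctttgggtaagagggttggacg
Over the 300-base windows of the table, which add 50 bases after the start, the Cpt1a window had a GC content of 62.3% with 22 CpG and the Cpt1c window 47.3% with 8 CpG.

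Acyl-CoA dehydrogenases, which start each cycle, differed little between LG and HG, with a median of 0.04 over 5 genes. Acadl measured 101, 91.9, 59.9 and 59.6 CPM in HG and 99.5, 87.5, 59.0 and 47.5 CPM in LG. It was lower in LG in 4 of 4 pairs, by small steps except in pair 4, with a log2 fold change of -0.11 with the block (SE 0.0660, edgeR adjusted p = 0.498). Acadm, the medium-chain enzyme, measured 59.3, 58.4, 43.9 and 42.3 CPM in HG and 59.4, 60.8, 45.5 and 44.3 CPM in LG, higher in LG in 4 of 4 pairs by 0.04 on the log2 scale. Acads, Acadvl and Acad9, whose protein also serves in assembly of respiratory complex I, were at 0.10, 0.04 and -0.02 with the block. The GC and length correction brought the blocked median of the 5 genes from 0.04 to -0.02. Reads of Acadvl cannot be told from those of Dvl2 where they overlap, since 1151 of its 2686 exon bases lie under Dvl2 on the other strand and the strand setting of the counting is not given in the sources used here.

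The enzymes that complete the cycle were all above 0, with a median of 0.12 without the block over 5 genes. Echs1, the short-chain enoyl-CoA hydratase, measured 80.3, 77.4, 80.8 and 80.1 CPM in HG and 101, 81.8, 93.1 and 79.0 CPM in LG. LG replicates 1 and 3 stood above the HG libraries, LG replicate 2 just above them and LG replicate 4 among them. Its log2 fold change with the block was 0.15 (SE 0.0670, edgeR unadjusted p = 0.0487, adjusted p = 0.368). Hadha measured 280, 262, 262 and 272 CPM in HG and 329, 278, 306 and 247 CPM in LG, and Hadhb 113, 113, 109 and 107 CPM in HG and 122, 118, 115 and 103 CPM in LG. Both subunits were higher in LG in pairs 1 to 3 and lower in pair 4, with log2 fold changes of 0.10 and 0.04 with the block (edgeR adjusted p = 0.571 and 0.773). With the GC and length correction these were 0.06 and 0.14, so their order reversed. Hadh and Acaa2, the short-chain hydroxyacyl dehydrogenase and the mitochondrial thiolase, were at 0.11 and 0.10.

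Hadha and Hadhb lie head to head on chromosome 5, with start sites 86 bases apart in GENCODE M21, Hadha on the minus strand (30118304 to 30155162) and Hadhb on the plus strand (30155248 to 30184593). Their RefSeq promoter windows share 228 of 300 bases and hold none of the motifs searched.

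Auxiliary enzymes, which rearrange the double bonds of unsaturated chains, were at 0.10 (Eci1), 0.08 (Eci2) and 0.07 (Decr1) with the block. Eci2 measured 73.1, 72.9, 60.7 and 59.5 CPM in HG and 80.9, 74.7, 70.4 and 56.2 CPM in LG. The electron transfer flavoprotein genes, which pass electrons from the dehydrogenases to ubiquinone, were nearest to 0, at 0.01 (Etfa), 0.08 (Etfb) and -0.01 (Etfdh). Etfa measured 52.9, 52.8, 39.4 and 38.3 CPM in HG and 53.4, 53.6, 40.0 and 38.3 CPM in LG, so that its HG and LG values nearly coincided within each number.

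Peroxisomal enzymes held the member with the smallest p. Acaa1a (ENSMUSG00000036138, chromosome 9 at 119339676 to 119350299, plus strand), the peroxisomal 3-ketoacyl-CoA thiolase, measured 53.3, 64.0, 70.7 and 70.5 CPM in HG and 70.1, 75.7, 81.1 and 83.0 CPM in LG. Every LG library exceeded the HG library of its number, although LG replicate 1 lay within the HG range. The log2 fold change was 0.26 without the block (SE 0.10, 95% interval 0.04 to 0.49, edgeR unadjusted p = 0.0275). It was 0.27 with the block (SE 0.0588, edgeR unadjusted p = 0.000849, adjusted p = 0.0827), and Acaa1a did not pass in either fit. That block counts numbers 1 and 2, which share a code, as separate pairs. With the preparation code as the block, the smallest edgeR adjusted p of any member was 0.316. With counts summed per code and that block it was 0.187. With the GC and length correction beside the block the log2 fold change was 0.18 (edgeR adjusted p = 0.0949). Of the 4414 exon bases of Acaa1a 290 lie under Myd88 on the other strand. Its close paralog Acaa1b, with which reads may be shared, was at 0.22 with the block (edgeR adjusted p = 0.345). Hsd17b4 measured 232, 224, 235 and 239 CPM in HG and 242, 231, 252 and 217 CPM in LG, a log2 fold change of 0.02 with a 95% interval from -0.12 to 0.15 with the block. Acox3, an oxidase for branched chains, was at 0.11 (edgeR adjusted p = 0.552). Ehhadh was lower in LG in 4 of 4 pairs at -0.24 (adjusted p = 0.577), on 74 to 142 counts per library.

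Ketone use genes showed a small difference for the dehydrogenase and almost none for the others. Bdh1 (ENSMUSG00000046598, chromosome 16 at 31422280 to 31458901, plus strand) measured 63.8, 60.3, 66.7 and 77.1 CPM in HG and 75.7, 68.4, 79.3 and 81.7 CPM in LG. LG exceeded HG in 4 of 4 pairs, and LG replicates 1 and 2 lay within the HG range. Its log2 fold change with the block was 0.19 (SE 0.0579, 95% interval 0.06 to 0.32, edgeR unadjusted p = 0.00711, adjusted p = 0.194). With the GC and length correction as well it was 0.14 (edgeR adjusted p = 0.214). Oxct1 measured 291, 256, 268 and 266 CPM in HG and 309, 262, 280 and 247 CPM in LG, with a 95% interval from -0.11 to 0.15 around 0.02. Acat1 measured 211, 182, 190 and 187 CPM in HG and 223, 184, 202 and 168 CPM in LG, with an interval from -0.13 to 0.14 around 0.01. In both genes pairs 1 to 3 were higher and pair 4 lower in LG.

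The largest differences among the 31 genes lay between preparation codes, not between glucose levels. A test of the preparation terms beside the group, by edgeR and chosen after the data were seen, passed for 10 of 31 members (32.3%, against 13.7% of all genes tested). For 9 of them (29.0%, against 7.33% of all genes) all 4 libraries numbered 1 and 2 lay above the other 4. The test asks for any difference among the 3 codes, and each adjusted p below belongs to it. The fold difference of libraries 1 and 2 over the others was not tested by itself. Libraries 1 and 2 share 1 code, so the p-values measure the spread of libraries within codes, not between codes. Cpt1a was 4.87-fold higher in libraries 1 and 2 (edgeR adjusted p = 1.41e-07), with 45.4 to 47.5 CPM against 7.25 to 11.4 CPM. The log2 difference was 2.22 within HG and 2.35 within LG. Acadl was 1.68-fold higher (adjusted p = 0.000235), Acaa2 1.54-fold (0.00637), Hadh 1.48-fold (0.00114) and Acsl6 1.45-fold (0.000975, all by edgeR). Etfa, Acadm, Acsl3 and Eci2 were 1.23-fold to 1.36-fold higher. Acads was the 1 member (3.23%, against 4.78% of all genes) that passed with lower values in libraries 1 and 2, at 21.5 to 28.5 CPM against 32.5 to 34.3 CPM. None of the 3 ketone use genes and none of the 4 peroxisomal enzymes passed this test. Beside the 13.7% of all genes, such small counts do not set these roles apart. Among the other pathway genes described below, 2 of 12 peroxisomal and 5 of 8 ketone synthesis and transport genes passed it.

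**Figure D3:**
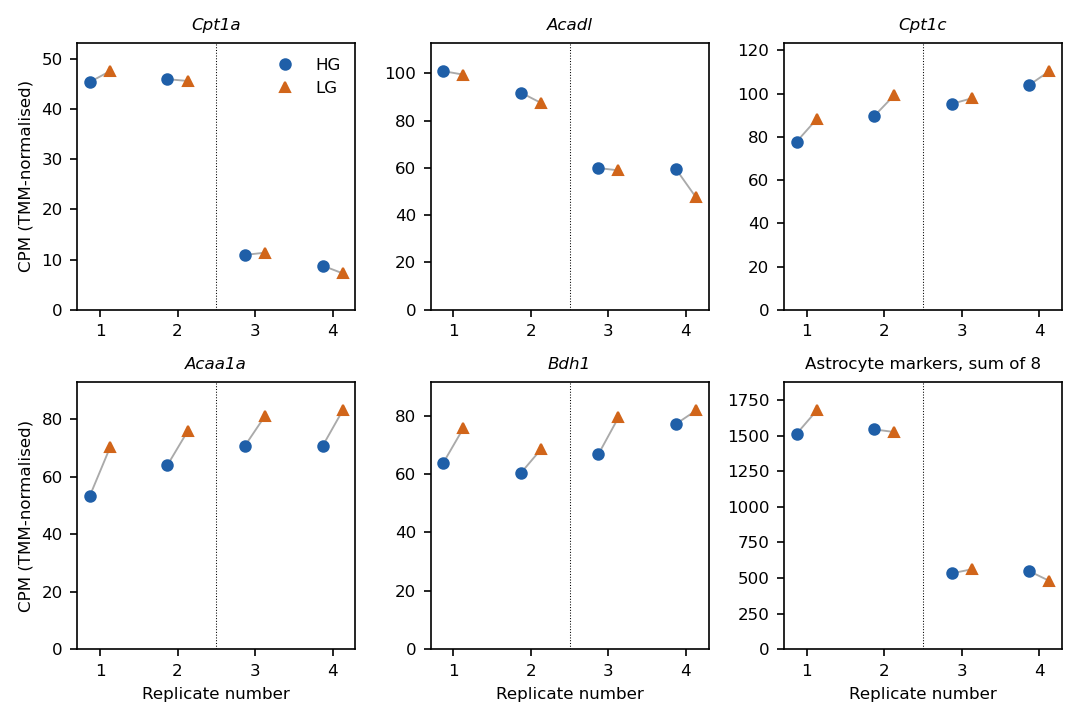
CPM of 5 genes and the summed CPM of 8 astrocyte markers in each library, by replicate number, with HG as circles, LG as triangles and a line joining the libraries of a number; the dotted line parts numbers 1 and 2, which share a preparation code, from 3 and 4. Cpt1a, Acadl and the astrocyte markers step down between numbers 2 and 3 in both groups, while Acaa1a and Bdh1 are higher in LG in all 4 pairs.

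Astrocyte markers moved with the same codes. All 8 listed markers passed the preparation test by edgeR with higher values in libraries 1 and 2, and their summed level was 1514 to 1678 CPM there and 480 to 561 CPM in the other libraries. Gfap was at 71.3 CPM on average in libraries 1 and 2 and 3.55 CPM in the others, Aqp4 at 109 and 4.50 CPM and Gja1 at 95.5 and 3.36 CPM. Between LG and HG the summed level was higher in LG in pairs 1 and 3 and lower in pairs 2 and 4, and 0 of the 8 markers passed. Aldh1l1 and Fgfr3 were higher in LG in 4 of 4 pairs (log2 fold change 0.34 each with the block, edgeR adjusted p = 0.102 and 0.103). Progenitor markers differed the other way, 4 of 5 passing, with 4854 to 5692 CPM in libraries 1 and 2 and 7102 to 7586 CPM in the others. Markers of premyelinating and mature oligodendrocytes differed in both directions: Mag was at 11.3 to 13.7 against 0.410 to 1.37 CPM and Mbp at 88.3 to 100 against 22.1 to 37.2 CPM, while Cnp was lower in libraries 1 and 2 at 303 to 406 against 499 to 676 CPM. Their sums overlapped at 521 to 603 against 580 to 839 CPM. Endothelial markers summed to 2.95 to 3.86 against 1.33 to 1.95 CPM, and fibroblast and mural markers to 3.55 to 6.03 against 0.638 to 0.883 CPM. The part of these cells' RNA in the difference in Cpt1a and the other 8 genes was not tested. Between LG and HG 1 of the 28 tested markers, of 42 listed, passed with the block, Myrf, a factor of oligodendrocyte maturation (log2 fold change 0.60, edgeR adjusted p = 0.00871). In bulk RNA more cells of a type and more RNA per cell cannot be told apart, and the code cannot be told apart from anything else that differed between libraries of different codes.

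Acsl6 is the member of this set whose RefSeq window held the match TCAAGGTCA, the extended motif of estrogen-related receptors, which are known regulators of oxidative genes. It is in 0.423% of all 32851 windows. The first 200 of the 250 bases before the first of its 3 start sites are printed for that reason, with capitals marking 2 AGGTCA matches on the opposite strand, of which the one nearer the gene is part of the extended motif.
Acsl6, chr11:54303574-54303773, plus strand: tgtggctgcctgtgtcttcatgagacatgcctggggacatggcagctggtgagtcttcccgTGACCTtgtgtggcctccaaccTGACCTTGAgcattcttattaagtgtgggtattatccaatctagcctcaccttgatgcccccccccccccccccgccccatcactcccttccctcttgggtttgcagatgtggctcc
Of the 31 genes, 26 had 30 windows in the table. The motif AGGTCA, searched on both strands as were all motifs, was in 6 of 30 windows and in 16.3% of all windows. The PPAR direct repeat, 2 copies of AGGTCA spaced by 1 base, the E-box CACGTG and the cyclic AMP response element TGACGTCA were in 0 of 30, and in 0.0396%, 7.15% and 1.79% of all windows. The NRF1 palindrome was in 1 window, that of Etfdh, and in 0.971% of all. The carbohydrate response element, 2 exact copies of CACGTG spaced by 5 bases, was in 0 of all windows. The windows of the members had a median GC content of 60.5% with a median of 17 CpG, against 52.7% and 7 CpG over all windows.

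**Figure D4:**
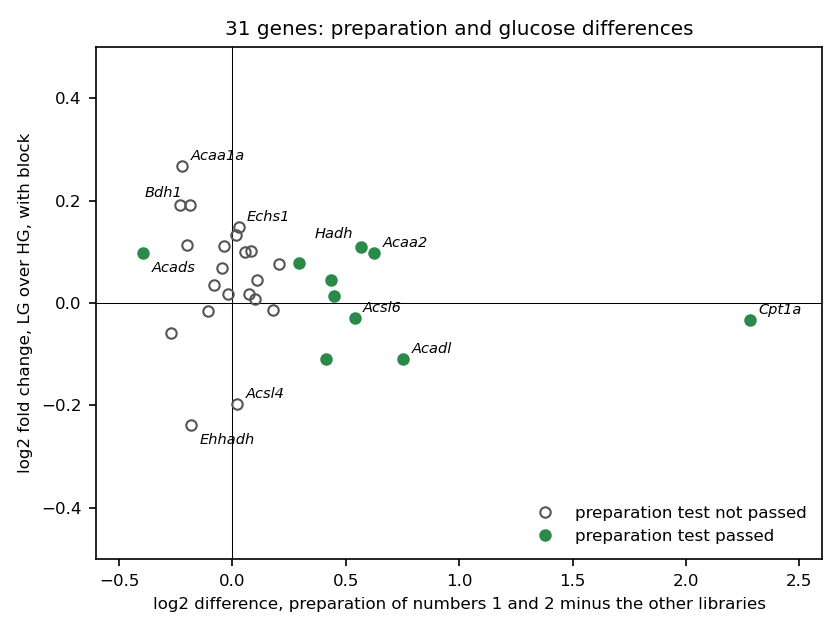
For each of the 31 genes, the log2 difference between the 4 libraries numbered 1 and 2 and the other 4 (x axis) and the log2 fold change of LG over HG with the replicate block (y axis). Filled points passed the preparation test; Cpt1a lies at 2.28 on the x axis and -0.03 on the y axis, while Acaa1a lies highest at 0.27.

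Other genes of fatty acid and ketone metabolism were measured as a list of 66, of which 59 were tested. None passed in LG against HG by edgeR with or without the block, or by DESeq2. With the block 15 of 59 had an unadjusted p under 0.05 (25.4%, against 13.4% of all genes), 13 of them higher in LG, as were 6.02% of all genes, and without it 1 did. With the GC and length correction beside the block the count was 8 of 59 (13.6%, against 13.2% of all genes). The median log2 fold change was 0.07 in both fits. Slc27a6, a fatty acid transport protein, had the smallest p, at -0.46 (edgeR adjusted p = 0.0967). The next were the lipases and transporters Mgll, which cleaves monoacylglycerol (0.28, 0.0980), Slc27a3 (0.30, 0.106), Pnpla2, which starts triglyceride breakdown (0.25, 0.170), and Slc27a4 (0.20, 0.242), all higher in LG in 4 of 4 pairs. With the GC and length correction Slc27a3, Pnpla2 and Slc27a4 came to 0.19, 0.16 and 0.10. Without pair 4, Mgll passed at 0.34 (edgeR with the block, adjusted p = 0.0465). In 3 of the 59 genes (5.08%, against 1.07% of all genes) every LG library lay above every HG library: Pnpla2, the carnitine transporter gene Slc22a5 and the peroxisomal reductase gene Decr2, named after their values were seen. Genes above 0 without the block (51.4% of all genes) were counted by role, with no test of a difference between roles. They were 10 of 12 other peroxisomal, 9 of 11 other mitochondrial oxidation, 6 of 12 uptake and activation and 2 of 3 carnitine genes. The rest were 1 of 3 CPT1 regulation, 3 of 8 ketone synthesis and transport, 4 of 4 lipolysis and lipid droplet and 5 of 6 transcription factor genes. Of the lipolysis and lipid droplet genes, Plin2 was at 0.01.

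None of the 6 tested transcription factor genes of these pathways passed. Ppara, Ppard, Rxra, Ppargc1b and Esrra were at 0.11, 0.17, 0.05, 0.23 and 0.06 with the block and Ppargc1a at -0.18, the last lower in LG in 4 of 4 pairs. Intervals were wide for Ppargc1b (-0.31 to 0.77) and Ppara (-0.26 to 0.49), and Rxra turned to -0.06 with the GC and length correction. Of 16 listed targets of PPAR factors 9 were tested and 0 passed by edgeR in either fit, with a median of 0.07 with the block. With the GC and length correction as well the median was -0.01, and 4 of 9 were above 0, against 8 of 9 with the block alone. Over all 18905 genes, 9145 were above 0 with that correction and 9519 with the block alone. Pdk4 and Angptl4, which fatty acids induce through PPAR factors, were at -0.21 and 0.20 on low levels of at most 2.14 and 0.758 CPM. Both were higher in libraries 1 and 2 than in the others, by 5.91-fold and 5.62-fold.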

How the data were processed

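RNA-seq libraries of 4 HG and 4 LG cultures were compared. Values in the authors' deposited table are raw, unnormalised counts for each Ensembl gene. The submitters' processing notes list CASAVA 1.8.2, STAR, featureCounts, DESeq2 and mm10 without saying what each was used for. Annotation release, strand setting and handling of multi-mapping reads: not given in the sources used here. Symbols, positions and exon lengths came from GENCODE M21 (GRCm38), which named 52125 of 56980 IDs; RefSeq's GRCm38.p6 table gave promoter windows.

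Counts were fitted in R 4.3.3 with edgeR 4.0.16 (filterByExpr, TMM, robust quasi-likelihood), p-values were adjusted over 18905 genes by Benjamini-Hochberg, and the threshold was 0.05. An SE is the absolute log2 fold change divided by the square root of F, and 95% intervals use the t distribution. CPM are TMM-normalised, and pair differences are log2 CPM with a prior count of 2. TPM use union exon lengths. The alternatives were DESeq2 1.42.0, other filters and scaling, blocks, left-out libraries, and GC and length trends removed with mgcv 1.9.3 (known for 97.5% of tested genes). The tests were tried on simulated counts.

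Same-numbered libraries share a description code. Their deviations from group means correlated at r from 0.448 to 0.625 across genes (not independent replicates), against at most 0.419 between different numbers. The numbers were therefore taken as pairs. The code does not part number 1 from number 2, so matching within them rests on the title numbers and these correlations. Deviations from a mean of 4 libraries lower the values between different numbers by construction. Replicates differed by far more than sampling noise (lowest chi-square over its degrees of freedom, 19.4). Labels do not say whether numbers 1 and 2, which share a code, came from separate animals, so p-values may in part measure technical spread.

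The members and lists were chosen with earlier results of these data known. Every member is accounted for; values in each library are given for members with an unadjusted p under 0.05 in either fit, for the most abundant of each role and for 9 genes chosen by name. Other pathway genes are named where they passed or were among the 5 with the smallest p with the block, with the exceptions stated; some genes of these lists are not reported here.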

Additional observations from a re-analysis of the deposited data

Results flagged for a closer look

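In 62 groups of 4 libraries, 1 for each member and glucose level, 2 held a library far from the other 3 by Dixon's ratio, where chance flags about 1 in 20. Slc25a20, the carnitine-acylcarnitine translocase gene, was highest in HG replicate 4 at 44.2 CPM, against 39.6 to 40.3 CPM in the other HG libraries. Acad9 was highest in LG replicate 3 at 58.2 CPM, against 52.5 to 53.3 CPM in the other LG libraries.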

How the results depend on the processing

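Under the 20 alternatives no member passed in LG against HG, and the smallest adjusted p of any member was 0.0641, for Acsl4 with the block and without pair 4. The replicate block changed no member's call. The count of all genes passing was 0 without a block and 79 with the replicate block, 254 with the block and GC and length offsets, 1 with the preparation block, 17 with sums per preparation, 4 by DESeq2, and with the block 6, 0, 39 and 148 without pair 1, 2, 3 or 4. Without single libraries and without a block it stayed at 0. The member median ran from 0.00 to 0.10 without single libraries and from 0.02 to 0.11 with the block and without single pairs. Other pathway genes passing were 0 in all settings except 1 (Mgll) with the block and without pair 4. Above 0 in all 21 settings were Acaa1a, Bdh1, Echs1, Cpt1c, Cpt2, Slc25a20, Hadha, Hadhb, Eci1, Eci2, Decr1 and Acox3. Below 0 in all of them were Acsl3, Acsl4 and Ehhadh, while Cpt1a ran from -0.37 to 0.39. Some of these came near 0, with a lowest value of 0.012 for Eci2 and 0.014 for Hadhb. The settings reuse the same 8 libraries, so a constant sign is not independent evidence. How many of all genes kept their sign was not counted. The preparation test, chosen after the data were seen, passed 8 or 9 members without single libraries, all among the 10. That was 25.8% to 29.0% of members, against 8.14% to 11.2% of all genes. With GC and length offsets 11 members passed (35.5%, against 16.2% of all genes). Low levels limit Etfb (4.06 to 6.16 CPM) and Ehhadh (1.40 to 2.15 CPM).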

Other observations

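Among the other pathway genes, 23 of 59 passed the preparation test by edgeR (39.0%, against 13.7% of all genes). Of the 59, 15 passed with all libraries numbered 1 and 2 above the rest (7.33% of all genes did). Another 5 of the 59 passed with all of these libraries below the rest (4.78% of all genes did). The following, all higher in libraries 1 and 2, were chosen after their values were seen. Abcd2, a peroxisomal transporter of very long chain acyl-CoA, was at 4.56 to 6.58 CPM in libraries 1 and 2 and 0.543 to 0.863 CPM in the others. Acsf2, an acyl-CoA synthetase, was at 15.6 to 19.5 against 2.20 to 3.07 CPM. Ppargc1a, the coactivator of mitochondrial genes, was at 16.9 to 21.8 against 5.33 to 7.04 CPM, and Slc27a1, a fatty acid transport protein, at 38.9 to 53.1 against 17.9 to 21.2 CPM. Each range holds HG and LG libraries alike.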
